A study of Mus musculus with 8 samples.

Results

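Wnt receptors and pathway genes were followed for up to 240 min after tamoxifen in primary keratinocytes, the epithelial cells of the epidermis, from mouse. The members were all probe sets (groups of short probes for 1 transcript on an Affymetrix array) with a single gene symbol among Fzd1, Fzd2, Fzd6, Fzd7, Lrp5, Lrp6, Wnt4, Ctnnb1 and Axin2. This gave 9 of the 12393 genes with such a probe set, through 17 of the 22690 probe sets. Of these genes 3 had 1 probe set and 6 had several. Fzd6 was selected on its measured values, because it was higher late than early after tamoxifen, so the difference between late and early arrays is described below and not tested. All 8 arrays came from cells infected with an empty retrovirus. Untreated cells gave 2 arrays, and cells at 20, 40, 60, 120, 180 and 240 min after tamoxifen gave 1 array each. The labels give neither strain, age nor dose, and do not say whether arrays came from separate cultures. No array of cells handled for the same times without tamoxifen was analysed here, so tamoxifen and time in handling cannot be told apart. Tamoxifen binds the estrogen receptor and serves in many cell systems to switch on engineered receptor fusions; the labels name none here.

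Wnt proteins are secreted signals. They bind Frizzled receptors (Fzd genes) together with the co-receptors Lrp5 and Lrp6, and the signal keeps beta-catenin, the product of Ctnnb1, from being destroyed, so that it enters the nucleus and acts with TCF and LEF factors on target genes. Axin2 is such a target and encodes a scaffold of the complex that destroys beta-catenin, which makes it a negative feedback gene. Beta-catenin also links cadherins to the cytoskeleton at cell junctions. Other Frizzled signals do not use beta-catenin, and Fzd6 is known in mouse skin for orienting hair follicles through planar cell polarity. In the epidermis Wnt signals are known to act on basal cells and on hair follicle formation.

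RefSeq promoter windows (assembly GRCm38.p6) were matched for 5 of the 9 genes, as 6 windows, since Ctnnb1 has more than 1 start. Those of Fzd7, the receptor farthest from untreated among the tested members in the late arrays, and of Axin2, the feedback target, are printed here as the 250 bases before the gene start. The search was for the TCF and LEF motif, written as CTTTG followed by 2 letters that are each A or T, on both strands. Fzd7 lies on chromosome 1 and its window, chr1:59481897-59482146 on the plus strand, holds 1 match, in capitals, which starts 130 bases before the gene start. Axin2 lies on chromosome 11 (window chr11:108920099-108920348, plus strand) and its window holds no match, and neither do those of Fzd1, Wnt4 and Ctnnb1. Of all 32851 RefSeq windows of this length, 14.8% hold a match. A match is a run of letters and was not tested as a binding site, and bases outside these windows were not searched.
Fzd7: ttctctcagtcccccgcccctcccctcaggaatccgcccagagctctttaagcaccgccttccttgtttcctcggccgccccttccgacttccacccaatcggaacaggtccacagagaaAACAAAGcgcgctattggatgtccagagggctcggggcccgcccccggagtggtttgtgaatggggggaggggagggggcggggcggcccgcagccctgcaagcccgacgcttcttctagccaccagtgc
Axin2: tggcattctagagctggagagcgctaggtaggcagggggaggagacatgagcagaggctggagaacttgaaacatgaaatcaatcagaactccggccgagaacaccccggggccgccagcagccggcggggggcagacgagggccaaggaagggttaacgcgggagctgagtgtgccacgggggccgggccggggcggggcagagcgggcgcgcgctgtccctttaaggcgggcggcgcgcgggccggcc

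The deposited values are linear intensities, used here as log2(intensity + 16). Probes differ in how strongly they bind, so a level is compared between arrays and never between probe sets. The array medians lay between 192.0 and 198.2. All 14 basal keratinocyte markers with a probe set, Krt5, Krt14 and Trp63 among them, passed the brightness filter, with a mean log2 level of 11.28 to 11.39 over the arrays. Of 15 fibroblast markers on the array, 13 passed and Lum and Dcn did not, and their mean lay between 8.10 and 8.31. Of 12 leukocyte markers 7 passed, while Ptprc, Cd74, Itgam, Cd207 and Cd52 did not. Of 8 endothelial markers 2 passed, and Pecam1, Cdh5, Kdr, Tek, Tie1 and Vwf did not, and of 5 adipocyte markers on the array 2 passed. The 7 melanocyte markers on the array passed, with means of 9.61 to 9.75. Cell cycle genes separated the untreated arrays: 31 genes of the G2 and M phases averaged 9.61 (log2) in untreated replicate 1 and 8.85 in replicate 2. In these bulk samples, fewer cells of a type and less RNA per cell cannot be told apart.

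The members moved little. The range of a member probe set over the 8 arrays, highest minus lowest log2 value, was 0.11 to 0.50 with a median of 0.24, and the median over all 20380 single-symbol probe sets was 0.20. The 2 untreated arrays differed by at most 0.20 on a member. Of the 17 probe sets, 14 passed the brightness filter (mean log2 at least 7.04, which leaves out the dimmest 30%). The other 3 were the Lrp5 probe set and the dimmer probe sets of Fzd7 and Axin2, so Lrp5 was described and not tested. In the fit each gene was represented by its brightest probe set, which gave 8 member genes among 9294.

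**Figure D1:**
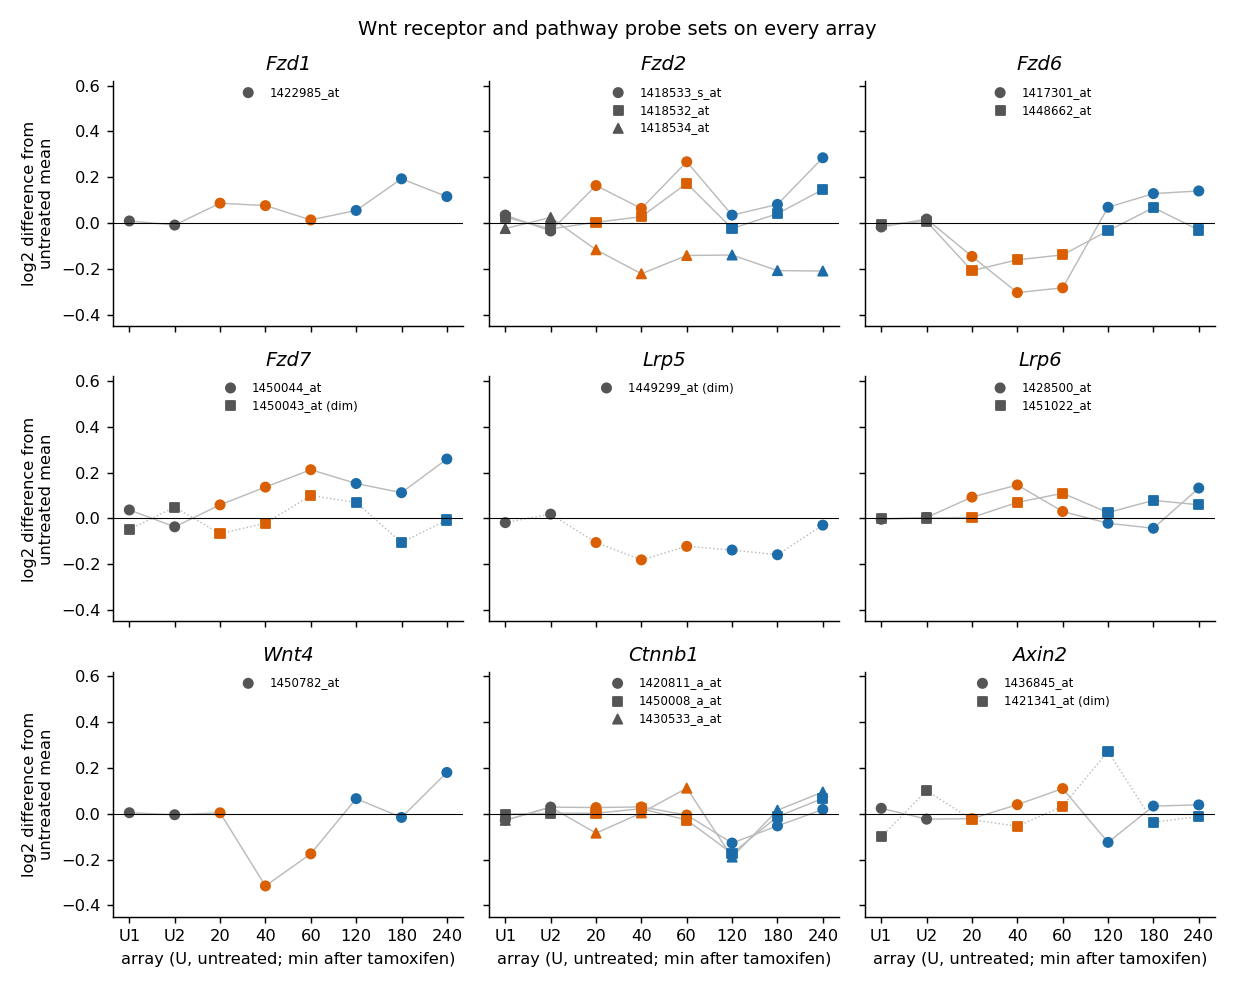
Log2 difference of each member probe set from its untreated mean (y axis) on each array (x axis; U1 and U2 untreated in grey, 20 to 60 min in orange, 120 to 240 min in blue), with 1 panel per gene, 1 marker shape per probe set and dotted lines for probe sets below the brightness filter. Both Fzd6 probe sets lie below 0 at 20, 40 and 60 min, and 3 Ctnnb1 probe sets are lowest at 120 min.

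Both Fzd6 probe sets were lower in the first hour than in untreated cells and higher again from 120 min, the brighter one above the untreated arrays and the other around them. The probe set 1417301_at read 10.27 and 10.30 (log2) in the untreated arrays, 10.14, 9.98 and 10.00 at 20, 40 and 60 min, and 10.35, 10.41 and 10.42 at 120, 180 and 240 min. The 3 windows did not overlap: every early array lay below both untreated arrays, and every late array lay above them. Of all single-symbol probe sets 0.432% did so, and nothing is read from this share because Fzd6 was chosen on these arrays. The second probe set, 1448662_at, read 8.28 and 8.30 untreated, then 8.08, 8.13 and 8.15, then 8.26, 8.36 and 8.26. Its early arrays also lay below all the others, whereas its late arrays overlapped the untreated ones. The late arrays of 1417301_at were thus above the early ones by 0.36 ± 0.05 (log2, SE from limma), a 1.28-fold ratio, and those of 1448662_at by 0.17, a 1.13-fold ratio. Most of that difference lay between the early and the untreated arrays, at -0.24 ± 0.06 for 1417301_at and -0.17 for 1448662_at. The late minus untreated difference was 0.11 ± 0.06 for the first and 0.00097 for the second. These values describe the contrast that chose the gene and the arrays it used, and carry no test. Over all 6 tamoxifen arrays, which pool the low early and the high late values, the brighter probe set differed from untreated by -0.07, also given without a test.

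**Figure D2:**
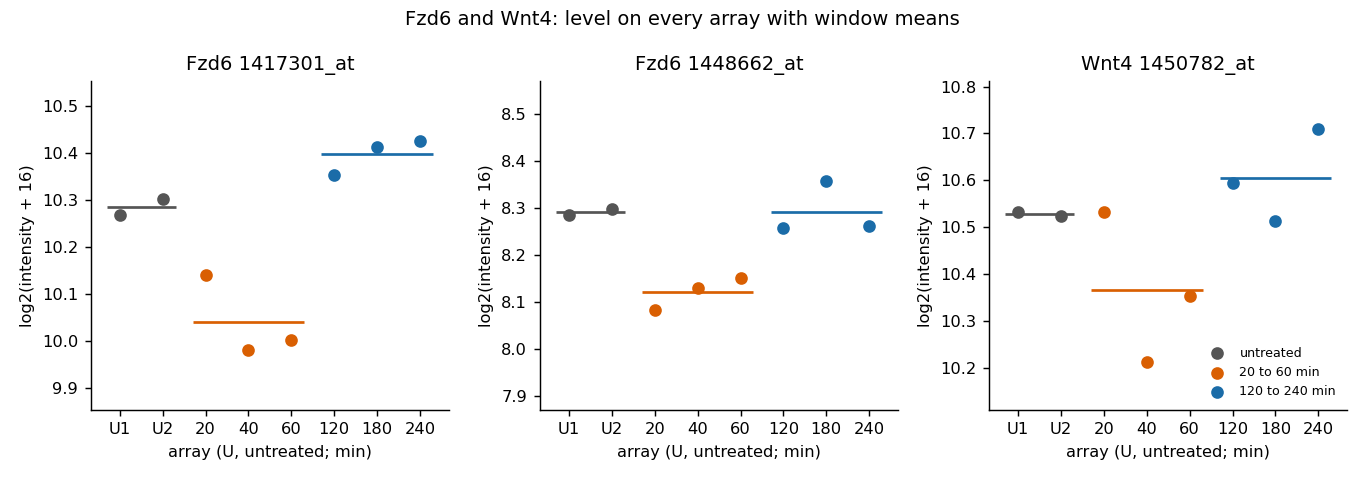
Level as log2(intensity + 16) (y axis) of the 2 Fzd6 probe sets and of the Wnt4 probe set on each array (x axis; U1 and U2 untreated, then min after tamoxifen), with horizontal lines for the window means; the y axes do not start at 0 and span 0.70 each. For Fzd6 1417301_at the window means are 10.28 untreated, 10.04 at 20 to 60 min and 10.40 at 120 to 240 min.

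Late above early with no overlap held for 2 member probe sets, both of Fzd6, and the reverse for 0. The shares over all single-symbol probe sets were 10.7% and 7.69%, and nothing is read from this count because the contrast chose Fzd6. Marker lists of cell types and of the cell cycle also moved over the same arrays, not all in the same direction. Over all genes tested, 56.2% were higher late than early and 44.5% were higher early than untreated. Fibroblast markers were higher late than early in 12 of 13 cases, with means of 8.15 and 8.22 untreated, 8.10 to 8.12 early and 8.16 to 8.31 late; Lum and Dcn stayed below the filter. The 7 leukocyte markers that passed were all lower early than untreated, with means of 7.53 and 7.62 untreated, 7.42 to 7.47 early and 7.49 to 7.58 late, so their early arrays too were the lowest. The 2 adipocyte markers that passed averaged 8.72 and 9.10 untreated, 8.43 to 8.57 early and 8.54 to 9.19 late, with Adipoq, Pparg and Cd36 below the filter. These 2 went opposite ways, 1 higher and 1 lower early than untreated, and again 1 higher and 1 lower late than early. The 12 suprabasal keratinocyte markers that passed averaged 11.45 and 11.47 untreated, 11.37 to 11.41 early and 11.38 to 11.51 late. Their early means too lay below both untreated means, while late against early 6 of them were higher and 6 lower. Basal keratinocyte markers were higher late than early in 8 of 14 cases, melanocyte markers in 4 of 7 and endothelial markers in 0 of 2. Early against untreated, 5 of the 7 melanocyte markers were higher. The part of these lists in the Fzd6 values was not tested. G2 and M phase genes were lower late than early in 28 of 31 cases and S phase genes in 25 of 29. The late arrays were split, however. G2 and M phase genes averaged 9.09, 9.42 and 9.30 early, 8.86 and 8.96 at 120 and 180 min, and 9.53 at 240 min. S phase genes averaged 9.25, 9.51 and 9.42 early, 9.10 and 9.15 at 120 and 180 min, and 9.46 at 240 min. On the contrast that chose the gene, the late minus early value of Fzd6 was 0.35 with the mean of the G2 and M phase list in the fit. It was 0.34 with that of the S phase list. The part of the cell cycle in the Fzd6 values was not tested.

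By Pearson's r over the 8 arrays, the genes most like Fzd6 1417301_at were Cpeb3 (0.995), Ly6d (0.962), Atg2b (0.958), Ulk1 (0.955) and Pan2 (0.955). They are the highest of 9294 genes, so their r is a ranking and not a test, and 57 genes had an r above 0.9. Ly6d, a surface antigen of keratinocytes, read 12.42 and 12.47 untreated, 12.30, 12.18 and 12.21 early and 12.42, 12.49 and 12.45 late. Ulk1, which encodes a kinase that starts autophagy, read 8.49 and 8.54, then 8.42, 8.33 and 8.38, then 8.67, 8.62 and 8.65. For both genes the early arrays were the lowest, as for Fzd6, which follows from picking them for this likeness.

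Fzd7, Fzd1 and Fzd2 encode closely related receptors that can signal through beta-catenin, and their brightest probe sets lay slightly above untreated in both windows. Fzd7 1450044_at read 8.81 and 8.73 untreated, 8.83, 8.91 and 8.98 early and 8.92, 8.88 and 9.03 late. All 6 tamoxifen arrays exceeded both untreated arrays, the 20 min array by little. The differences were 0.14 ± 0.07 (SE) early and 0.17 ± 0.07 late, or 0.16 ± 0.06 over all tamoxifen arrays, and none passed (limma, adjusted p = 0.381, 0.999 and 0.974). Its dimmer probe set, below the filter, differed by 0.00401 early and -0.01 late. It thus did not show the difference of the brighter one, but changes of dim probe sets are understated here.

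Fzd1 has the single probe set 1422985_at, which read 7.70 and 7.68 untreated, 7.78, 7.77 and 7.71 early and 7.75, 7.89 and 7.81 late. Here too every tamoxifen array was above both untreated arrays, with the 60 min array nearest to them. The differences were 0.06 ± 0.06 early and 0.12 ± 0.06 late (limma, adjusted p = 0.620 and 0.999).

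Fzd2 has 3 probe sets, which did not move together. The brightest, 1418533_s_at, whose suffix marks probes that can match related genes, read 7.99 and 7.92 untreated, 8.12, 8.02 and 8.23 early and 7.99, 8.04 and 8.24 late. Its difference was 0.16 ± 0.09 early and 0.13 ± 0.09 late (limma, adjusted p = 0.397 and 0.999), and the late value was 0.06 without the 240 min array. The probe set 1418534_at went the other way, from 7.44 and 7.48 untreated to 7.34, 7.24 and 7.32 early and 7.32, 7.25 and 7.25 late, with all 6 tamoxifen arrays below both untreated arrays. The third, 1418532_at, differed by 0.07 and 0.05 and overlapped. With the 3 probe sets averaged, Fzd2 differed from untreated by 0.02 early and 0.00075 late, so no direction can be given for the gene.

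The co-receptors differed little from untreated, Lrp6 mostly above it and Lrp5 below it. Lrp6 1428500_at read 8.45 and 8.46 untreated, 8.55, 8.60 and 8.49 early and 8.43, 8.41 and 8.59 late. The early arrays were all above untreated, the late ones on both sides, at differences of 0.09 ± 0.07 and 0.02 ± 0.07 (limma, adjusted p = 0.518 and 0.999). Its second probe set, 1451022_at, had the smallest range of all members, 0.11, and lay above untreated on all 6 tamoxifen arrays, by 0.06 early and 0.05 late. Lrp5, below the brightness filter, read 6.91 and 6.95 untreated, 6.82, 6.75 and 6.81 early and 6.79, 6.77 and 6.90 late. Its tamoxifen arrays all lay below both untreated arrays, at -0.14 early and -0.11 late, without a test.

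Wnt4, a ligand made by basal keratinocytes, had the widest range of the members, 0.50. It read 10.53 and 10.52 untreated and 10.53 at 20 min, 10.21 at 40 min and 10.35 at 60 min, then 10.60, 10.51 and 10.71 at 120, 180 and 240 min. The 40 min array was the lowest and the 240 min array the highest, while 20 and 180 min were level with untreated. The early difference of -0.16 ± 0.09 and the late one of 0.08 ± 0.09 did not pass (limma, adjusted p = 0.424 and 0.999). Single arrays moved these values: the early one was -0.09 without the 40 min array and -0.25 without the 20 min array, and the late one 0.02 without the 240 min array and 0.12 without the 180 min array. Late arrays averaged 0.24 above early ones and overlapped them.

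On its 2 brighter probe sets Ctnnb1 was nearly constant apart from the 120 min array. The third, 1430533_a_at, also differed between other arrays, from 9.99 at 20 min to 10.19 at 60 min. The brightest Ctnnb1 probe set, 1420811_a_at, read 12.72 and 12.77 untreated, 12.77, 12.78 and 12.74 early, and 12.62, 12.69 and 12.76 late. The early and late differences were 0.02 ± 0.06 and -0.05 ± 0.06 (limma, adjusted p = 0.902 and 0.999). All 3 probe sets were lowest at 120 min, at 12.62, 11.01 and 9.89, which lay 0.07, 0.15 and 0.10 below the next lowest array. Over all single-symbol probe sets, 15.3% were lowest at 120 min. That array has no replicate.

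The feedback target Axin2 gave no common course on its 2 probe sets. The probe set 1436845_at read 7.42 and 7.37 untreated, 7.37, 7.43 and 7.50 early and 7.27, 7.43 and 7.43 late, with the 120 min array lowest and the 60 min array highest. Its differences were 0.04 ± 0.07 and -0.02 ± 0.07 (limma, adjusted p = 0.771 and 0.999). The dimmer 1421341_at, below the filter, was highest at 120 min (7.14) where the first was lowest, and its untreated arrays were 6.77 and 6.97. Both probe sets lie near the filter limit of 7.04.

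**Figure D3:**
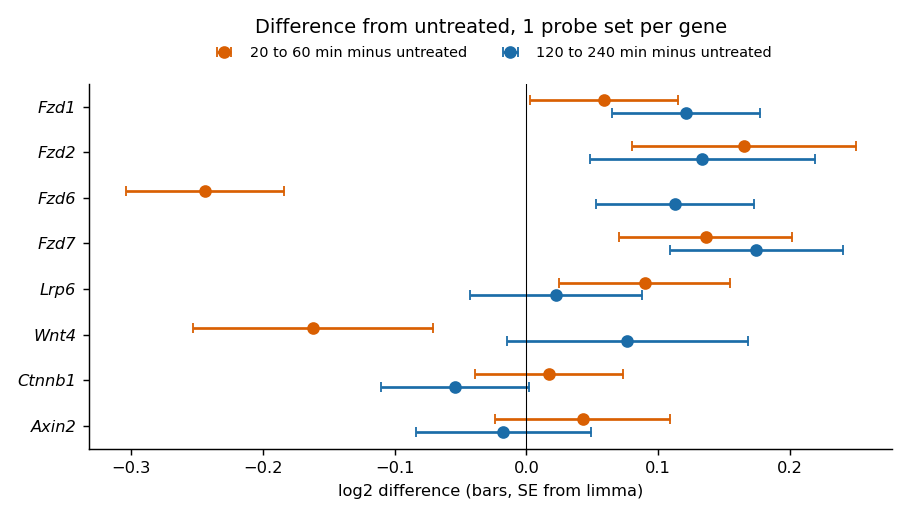
Log2 difference from untreated (x axis) of the 8 member genes in the fit, 1 probe set each (y axis), at 20 to 60 min (orange) and 120 to 240 min (blue), with SE from limma as bars. Fzd6 lies at -0.24 early and 0.11 late; Fzd1, Fzd2 and Fzd7 lie above 0 in both windows, and the 2 windows share the same untreated arrays.

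Counted together and without Fzd6, which was chosen on these arrays, no member passed in any of the 3 comparisons with untreated. At 20 to 60 min 0 of the 7 other members tested passed (limma, adjusted p under 0.05; 0% of 9294 genes passed). An unadjusted p below 0.05 was reached by 0 of these 7 and by 13.9% of all genes. At 120 to 240 min 0 of 7 passed (0% of all genes), and Fzd7 alone, 1 of 7, had an unadjusted p below 0.05, where 3.17% of all genes did. With all tamoxifen arrays 0 of 7 passed (0% of all genes), and Fzd7 alone, 1 of 7, had an unadjusted p below 0.05, where 3.44% of all genes did. The median difference of these 7 genes was 0.06 early and 0.08 late, where the medians of all genes were -0.01 and 0.01.

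Of the 17 probe sets, 5 were higher on every early array than on both untreated arrays and 4 were lower, against 13.7% and 17.5% of all single-symbol probe sets. Late, 4 were higher and 2 lower, against 9.39% and 9.69%. These counts include Fzd6: among the 15 other probe sets 5 were higher and 2 lower early, and 3 higher and 2 lower late. On all 6 tamoxifen arrays, 3 were higher (Fzd1, Fzd7 1450044_at and Lrp6 1451022_at) and 2 lower (Fzd2 1418534_at and Lrp5), against 3.12% and 4% of probe sets. These comparisons share the same 2 untreated arrays, and probe sets of 1 gene share their target, so the counts are not independent of each other.

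**Figure D4:**
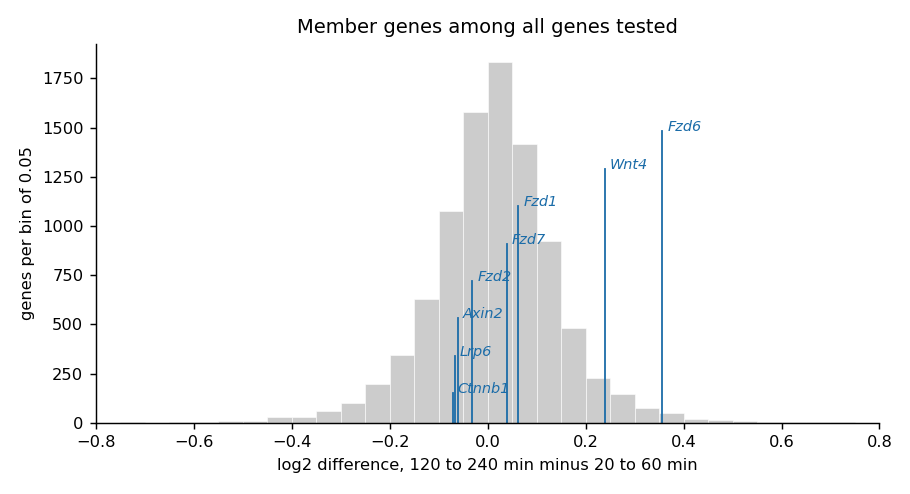
Histogram of the late minus early log2 difference over the 9294 genes tested (x axis, bins of 0.05; y axis, genes per bin), with blue lines at the member genes, whose heights only separate the names. Fzd6 (0.36) and Wnt4 (0.24) lie to the right, beyond the 95th percentile of all genes (0.22). The other 6 members lie between -0.07 and 0.06. This contrast chose Fzd6, so its place among all genes is not a result.

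The other genes of the pathway were taken by role from lists that hold 135 genes, of which 85 were tested. None passed in either window in limma, while 14 early (16.5%) and 6 late (7.06%) had an unadjusted p under 0.05, where 13.9% and 3.17% of all genes did. Early, 43 were higher and 42 lower than untreated, with a median of 0.00280, and late 47 were higher and 38 lower, with a median of 0.01. The share above untreated was 50.6% early and 55.3% late, and over all genes it was 44.5% and 55.2%. The adjusted p of every pathway gene named below lay above 0.3 early and above 0.9 late in limma.

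Of 13 ligand and secretion genes, 9 were lower early and 8 late, with medians of -0.06 and -0.02. Wnt11 was at -0.16 ± 0.06 (SE) early and -0.12 ± 0.06 late, Wnt10a at 0.15 ± 0.07 late. Wls, which carries Wnt proteins to the cell surface, was at -0.18 ± 0.08 early, and its other 2 probe sets were at -0.20 and -0.19. Its untreated arrays themselves were apart, at 10.45 and 10.71. Among 7 other receptors the medians were -0.00273 and 0.02. Fzd3, which acts with Fzd6 in planar polarity, was at 0.17 ± 0.07 early, on the other side of untreated from Fzd6, and at 0.14 ± 0.07 late. Its other 3 probe sets, below the filter, were at 0.03 to 0.07 early. Lgr6, a receptor for R-spondins, was at -0.14 ± 0.07 and -0.17 ± 0.07.

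Sostdc1, a secreted inhibitor of Wnt and BMP signals, lay farther from untreated early than any other of these genes. It read 9.37 and 9.78 untreated, 9.18, 8.91 and 8.70 at 20, 40 and 60 min, and 9.98, 9.77 and 9.46 late. Its early difference was -0.64 ± 0.18 (limma, adjusted p = 0.331), and the late arrays were 0.80 above the early ones. The second probe set read 8.11 and 8.43, then 8.07, 7.80 and 7.77, then 8.57, 8.35 and 8.09, and its early arrays too lay below both untreated arrays. The untreated arrays were 0.41 apart on the first probe set. The remaining secreted inhibitors lay closer to untreated, with Notum, an enzyme that inactivates Wnt proteins, at -0.07 ± 0.06 early and -0.09 ± 0.06 late, and Sost, an inhibitor that binds the Lrp co-receptors, at -0.10 ± 0.07 late, with a dim second probe set at 0.00361.

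Inside the cell, 16 cytoplasmic genes had medians of -0.02 and 0.04. Dvl1, which passes the signal on from Frizzled receptors, was at -0.18 ± 0.08 early, with its other probe set at -0.09. Btrc, part of the ubiquitin ligase that recognises beta-catenin, was at -0.18 ± 0.06 late, with a dim second probe set at -0.02, and the kinase gene Csnk1g1 was at 0.11 ± 0.05 late. The 11 nuclear genes had medians of -0.05 and 0.04. Bcl9l, a coactivator of beta-catenin, read 8.36 and 8.38 untreated and 8.08 to 8.29 on the tamoxifen arrays, all of them lower, at -0.19 ± 0.07 early and -0.21 ± 0.07 late. Tle1, a corepressor of TCF factors, was at 0.21 ± 0.07 early, with its other probe set at 0.33, and the related Tle3 was at 0.14 ± 0.06 late, with its others at 0.07 and 0.05. Genes known as Wnt targets in some tissues numbered 15, with 7 higher and 8 lower early, 5 higher and 10 lower late. Id2 was at 0.21 ± 0.06 early and 0.22 ± 0.06 late, with a second probe set at 0.21 and 0.22 and a further, dim one at 0.02 and -0.05. Sox9 was at 0.20 ± 0.08 early, with its other probe set at 0.11, and Myc at -0.15 ± 0.07 late. These target genes thus lay on both sides of untreated in each window.

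Of 10 planar polarity genes, 7 were higher and 3 lower in each window, with medians of 0.08 and 0.02, where 44.5% of all genes were higher early and 55.2% late. Prickle1, a core polarity gene, was at 0.18 ± 0.07 early and 0.14 ± 0.07 late. The 9 junction partners of beta-catenin were all above untreated early, with a median of 0.08, and 8 of 9 were above it late, with a median of 0.02, against the same shares of all genes. Nectin2, an adhesion gene, was at 0.27 ± 0.10 early and 0.23 ± 0.10 late, but its other probe set was at 0.02 and 0.00486. Ctnnal1 was at 0.20 ± 0.08 early, with its other probe set at 0.04, and Vcl, which encodes vinculin, at 0.05 ± 0.05 late, with its other at 0.01. No gene of either list passed.

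**Figure D5:**
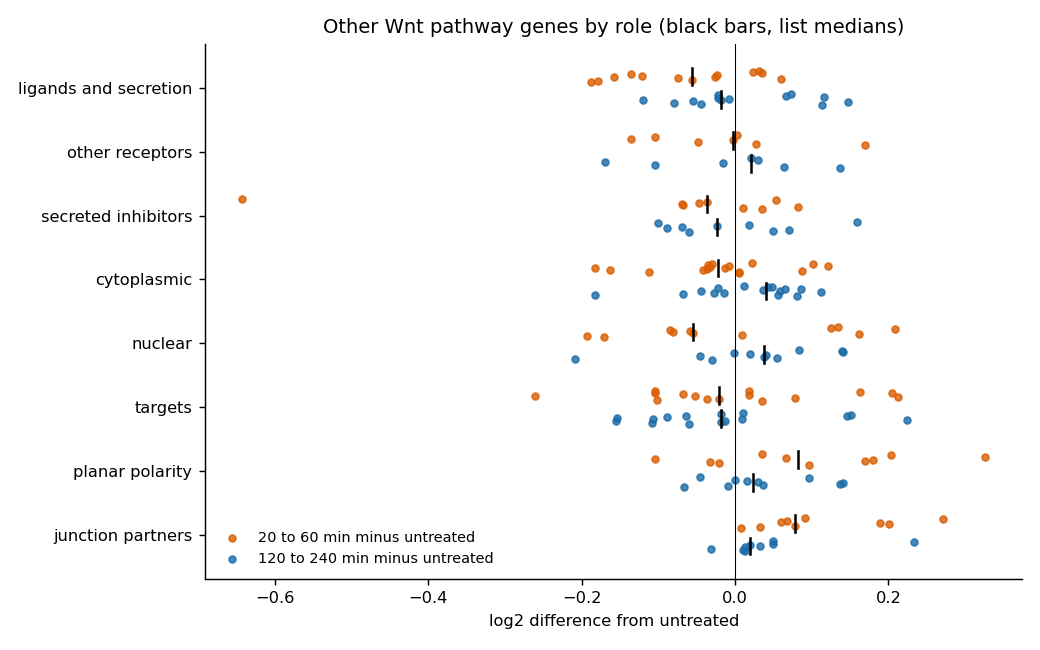
Log2 difference from untreated (x axis) of the other Wnt pathway genes tested, by list (y axis), at 20 to 60 min (orange) and 120 to 240 min (blue), with 1 point per gene and black bars at the list medians; a gene can be in more than 1 list. The point at -0.64 is Sostdc1 early, and the 9 junction partners lie right of 0 early.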

How the data were processed

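The labels describe total RNA extracted with Trizol and biotinylated cRNA made by the Affymetrix protocol. The deposited values are linear intensities per probe set; the authors' summarisation and scaling are not given in the labels or files. Groups came from the sample titles, although a description shared by all samples mentions tamoxifen. Here the values were used as log2(intensity + 16), which understates changes of dim probe sets, and tested with limma 3.58.1 in R 4.3.3 (lmFit, eBayes, Benjamini-Hochberg) over 9294 genes. One fit had 3 windows (2, 3 and 3 arrays, 5 residual degrees of freedom) and another compared all tamoxifen arrays with untreated. The arrays of a window are different times, not replicates, so the spread includes differences between times and may be technical. The number of arrays limits the precision. Symbols came from the platform annotation, checked against RefSeq (GRCm38.p6). The tests were tried on simulated arrays. The members, gene lists and the rule for named genes (all members; in each list, the 2 smallest p per window; the 5 genes most like Fzd6 and Axin2) were chosen with earlier results of these data known. Alternatives covered pseudocounts, filters, normalization, probe set choice, array weights, cell cycle covariates and leaving out each array.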

Additional observations from a re-analysis of the deposited data

Results flagged for a closer look

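Fzd6 probe set 1417301_at stood on opposite sides of both untreated arrays in the 2 windows. Its 3 early arrays lay at least 0.13 below the lower untreated array and its 3 late arrays at least 0.05 above the higher one, with late above early by 0.36 (log2). Of all 20380 single-symbol probe sets, 88 (0.432%) stood this way, early below and late above both untreated arrays. Nothing is read from this share. The difference between the windows was not tested, because it chose the gene. The second Fzd6 probe set showed the early side of this pattern and not the late side.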

How the results depend on the processing

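No tested member passed in any comparison with untreated under the 19 alternatives. The lowest adjusted p of a member was 0.171 early (G2 and M phase covariate), 0.504 late (array weights) and 0.655 over all tamoxifen arrays, where they reached 0.990, 1.00 and 1.00 at most. The median late minus early difference of the members lay between -0.05 and 0.04. That of Fzd6 lay between 0.26 and 0.41, and the value of 0.26 came from averaging its 2 probe sets. Array weights made the late difference of Fzd1 0.18, and the late minus early difference of Lrp6 -0.14. Between the windows, counts over all genes moved widely: 0 genes passed in limma with 1811 at an unadjusted p under 0.05, against 2859 passing with array weights, 1014 without the 240 min array and 531 with the G2 and M phase covariate. Early against untreated, 558 genes passed with the G2 and M phase covariate, none of them 1 of the 7 members tested, and 0 to 2 under the other alternatives; without untreated replicate 2, the genes at an unadjusted p under 0.05 numbered 341 in place of 1288. Where an untreated array is left out, the remaining one is assumed to vary like the other groups. No paired analysis was possible because the labels give no replicate numbers that groups share. Dim probe sets limit what can be said of Lrp5 and Axin2.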

Other observations

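The genes most like Axin2 1436845_at over the 8 arrays, by Pearson's r, were Clk3 (0.960), Syk (0.954), Eef1d (0.954), Nudt19 (0.953) and Usp48 (0.953), and 36 genes had an r above 0.9. These r values rank genes and are no test. All 5 were lowest on the 120 min array, as Axin2 1436845_at was, and picking them for likeness to it favours this. The 3 Ctnnb1 probe sets were also lowest there, as were 15.3% of all single-symbol probe sets. Eef1d, which encodes a translation elongation factor subunit, read 12.48 at 120 min against 12.54 to 12.66 on the other arrays.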
